A study of Rattus norvegicus with 138 samples.

Results

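The rostral ventrolateral medulla (RVLM) of female spontaneously hypertensive rats (SHRs, SHR/NHsd) was compared with that of female Wistar Kyoto (WKY/NHsd) rats at 24 wk of age, the oldest age of the study. Its members are the 9 RVLM libraries of that age, 6 from SHRs and 3 from WKY rats, of 46 from this region and as many rats, chosen by region, strain and age alone. Each library holds RNA from tissue punches taken on both sides of 1 rat's brain stem, and the same rats also gave libraries of the caudal ventrolateral medulla (CVLM) and of the solitary tract nucleus (NTS). Neither strain was treated, and SHRs at this age have long-standing high blood pressure. Strain and blood pressure go together in these animals and cannot be told apart. Of 32883 genes in the RVLM table, 13411 passed the filter on low counts and were tested.

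The RVLM holds the neurons that drive sympathetic outflow to the heart and blood vessels. Many of them are C1 neurons, which make adrenaline through tyrosine hydroxylase (Th), dopamine beta-hydroxylase (Dbh) and phenylethanolamine N-methyltransferase (Pnmt) and release glutamate. They are excited by glutamate and held back by GABA from the CVLM, which relays the baroreceptor signal received in the NTS. The SHR and the WKY rat are inbred strains with a shared origin, so each carries fixed alleles that the other may lack.

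Between 6737117 and 16516713 counts per library fell in genes, the most in SHR replicate 6, the only one of the 9 whose library name ends in 2. Levels are given as CPM, a gene's counts as a share of all counts in the library in units of 1e-06, scaled between libraries by TMM. The marker genes of C1 neurons were checked first. Pnmt, the last enzyme of adrenaline synthesis, was at 6.48, 32.7 and 30 CPM in the 3 WKY rats and between 9.5 and 29.2 CPM in SHRs, with a median of 18.1. The Th level was 9.47, 77.7 and 54 CPM in the WKY rats, against a lowest of 21.3, a median of 50.3 and a highest of 62.4 CPM in SHRs. WKY replicate 1 was the lowest of the 9 libraries for both genes and for Dbh, and the strains overlapped. Log2 fold changes of SHR over WKY were -0.06 for Th (standard error 0.54, adjusted p = 0.962), 0.15 for Dbh (standard error 0.68, adjusted p = 0.928) and -0.23 for Pnmt (standard error 0.67, adjusted p = 0.886), by the quasi-likelihood test of edgeR that is used throughout. The sign of each turned in at least 1 setting given under the dependence on processing. Slc17a6, the vesicular glutamate transporter of these neurons, did not pass the test either (0.37, standard error 0.29, adjusted p = 0.522). WKY replicate 1 was the lowest here too, at 68.1 CPM beside 118 and 119 in the other WKY rats and at least 75.1 in SHRs. Its summed CPM was the lowest of the 9 for inhibitory neuron markers, at 147, and the highest for general neuron markers, at 31455. Chat, the acetylcholine-making enzyme of nearby motor neurons, was at 307, 189 and 257 CPM in WKY rats and 150 to 320 CPM in SHRs. The punches thus also held RNA of cholinergic cells, at overlapping Chat levels.

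To ask which transcripts differed between the strains in extended hypertension, the 6 SHRs were compared with the 3 WKY rats in 1 model over all 46 RVLM libraries. Calls needed a fold change of 2 or more together with an adjusted p no higher than 0.01. At 24 wk 130 genes were called, which is 0.969% of those tested, and they divided evenly into 65 higher (0.485%) and 65 lower (0.485%) in SHRs. At an adjusted p under 0.05 and any fold change, 147 genes were higher (1.1%) and 154 lower (1.15%), together 2.24%. The 147 became 80 without WKY replicate 1 and 93 without WKY replicate 3. Of the 130 called genes, 36 had a log2 fold change above 2 and 26 one below -2. The groups did not overlap for 127 of them, against 9.25% of all tested genes. The call rule, applied to the same libraries, favours genes whose groups lie apart, so this count adds no support of its own. The median log2 fold change over all tested genes was 0.05. The plot of fold change against level shows that called genes of both directions lie at low and at high levels.

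**Figure D1:**
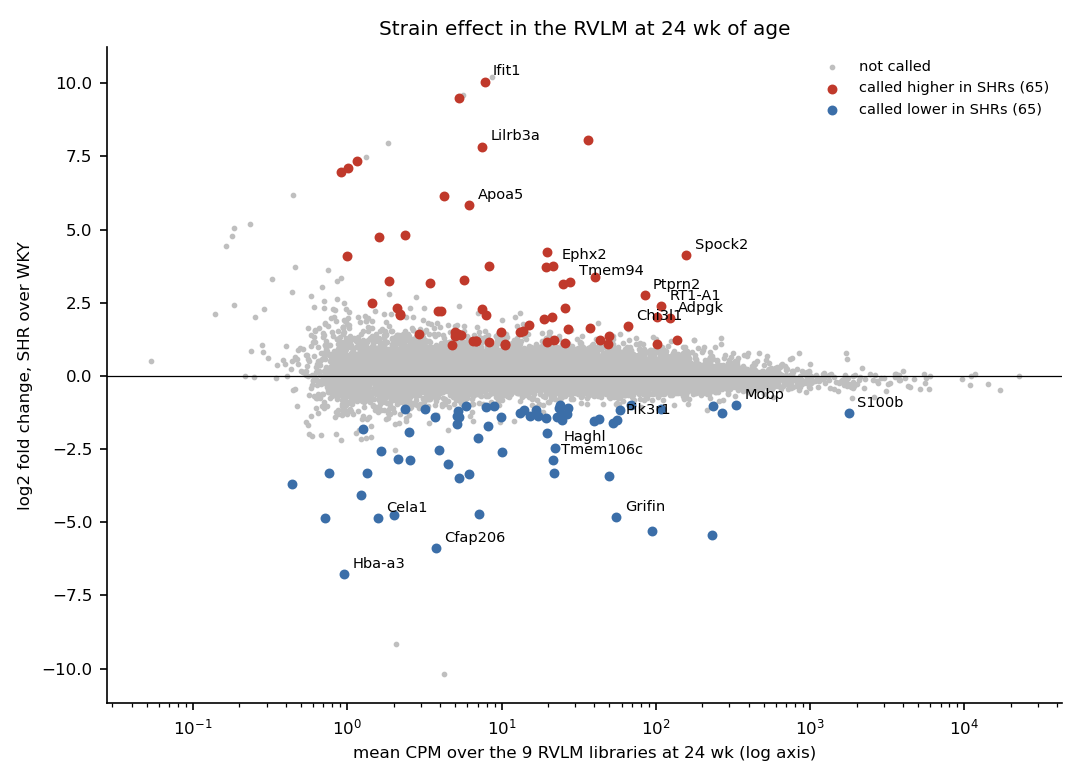
Log2 fold change of SHR over WKY in the RVLM at 24 wk (vertical axis) against the mean CPM over the 9 libraries (horizontal log axis), 1 point per tested gene, with the 65 genes called higher in red, the 65 called lower in blue and all others in grey. For genes at 0 in 1 strain the drawn fold change depends on the prior count of the fit. S100b, with a mean above 1000 CPM, is the most highly expressed called gene.

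The genes with the largest rise in SHRs included some of immune function, of which Ifit1 is induced by interferon. Of 23 interferon-induced genes tested Ifit1 alone passed, and their median log2 fold change was -0.29. Ifit1, an interferon-induced gene that binds foreign RNA, had 0 counts in all 3 WKY rats. In SHRs it ranged from 3.54 to 17.6 CPM, with a median of 10.9. Against a floor of 3 counts over the WKY group this is at least 108-fold higher (adjusted p = 1.54e-09, edgeR). Lilrb3a, a leukocyte immunoglobulin-like receptor, was at 0, 0.103 and 0 CPM in WKY rats and lay between 9.9 and 13.9 CPM in SHRs, with a median of 10.6 (adjusted p = 4.14e-11). That is 775 counts against 1, after scaling for depth, a ratio of 299 with a 95% exact interval of 53.5 to 11826, which like the other count ratios covers counting error only. Cd4, a surface receptor of T cells and macrophages, had 0.249, 0.718 and 0.598 CPM in WKY rats against 3.6 to 6.57 CPM in SHRs, with a median of 4.82 (log2 fold change 3.19, standard error 0.49, adjusted p = 1.51e-05). Il2rb, a subunit of the interleukin-2 receptor, was at 0, 0.205 and 0.12 CPM in WKY rats and at 1.58 to 5.29 CPM in SHRs, with a median of 3.48 (adjusted p = 0.00016), a count ratio of 31.1 with an interval of 10.5 to 152. For none of these genes did the strains overlap. The summed CPM of the 10 microglial markers ran from 312 to 403 in SHRs, with a median of 363 beside 351 in WKY rats, and the strains overlapped. Whether cell numbers or RNA per cell differ cannot be told apart in bulk tissue.

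Cfb, complement factor B of the alternative pathway, is listed under 2 gene identifiers. The copy ENSRNOG00000000419 had 0 counts in WKY rats and 1.72 to 16.6 CPM in SHRs, with a median of 7.29, at least 64.2-fold higher against the same floor (adjusted p = 8.97e-05, edgeR). The copy ENSRNOG00000051158 was at 13, 12.9 and 16.8 CPM in WKY rats and between 7.98 and 16.8 CPM in SHRs (log2 fold change -0.23, standard error 0.56, adjusted p = 0.856). The sum of both was 13, 12.9 and 16.8 CPM in WKY rats and 14.6 to 27.4 CPM in SHRs, and the strains overlapped. Reads of near-identical copies can be divided between them by the counting step, so the call of the first copy is uncertain.

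Other genes with large rises act in lipid handling, the extracellular matrix and mitochondria. Spock2, a proteoglycan of the brain's extracellular matrix, was at 13.8, 10.8 and 14.6 CPM in WKY rats. In SHRs its lowest level was 135, its median 241 and its highest 287 CPM (log2 fold change 4.14, standard error 0.21, adjusted p = 1.79e-18). It was the gene above 100 CPM in SHRs with the largest rise. Ephx2, the soluble epoxide hydrolase that breaks down vasodilator epoxyeicosatrienoic acids, had 3.49, 1.54 and 1.91 CPM in WKY rats and 28.8 to 40 CPM in SHRs, with a median of 29.7 (3.77, standard error 0.23, adjusted p = 7.61e-16). Apoa5, an apolipoprotein of triglyceride-rich particles, was at 0, 0.41 and 0 CPM in WKY rats and at 6.19 to 12.3 CPM in SHRs (5.83, standard error 0.51, adjusted p = 1.48e-11). Tomm40l, a relative of the mitochondrial import channel, was at 4.74, 4.82 and 7.18 CPM in WKY rats and at 50.1 to 67.4 CPM in SHRs (3.37, standard error 0.23, adjusted p = 1.21e-14). None of these ranges overlapped, as the plot of levels by library shows. Pkp1, a desmosome protein, rose by 3.26 on the log2 scale and Tmem94 by 3.22 (adjusted p = 3.41e-08 and 2.4e-07). Among genes with placeholder names, AABR07064061.1 was at 0.623, 0 and 0 CPM in WKY rats and at 44.9 to 59.9 CPM in SHRs.

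**Figure D2:**
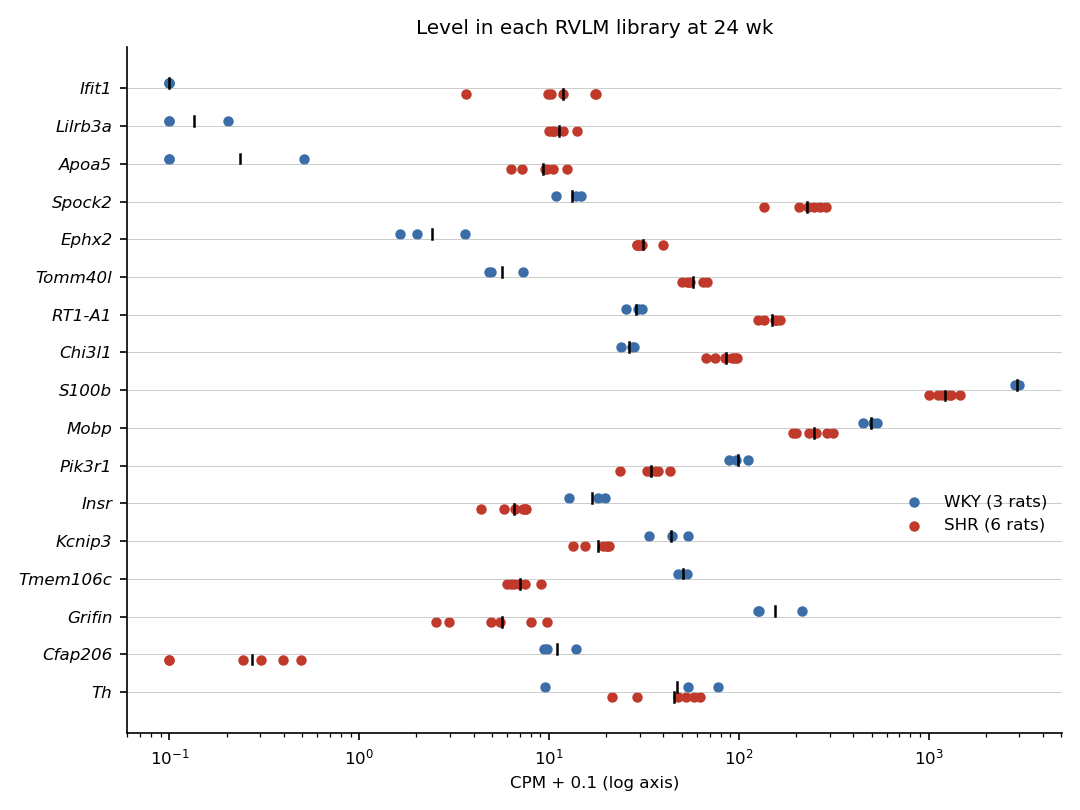
CPM plus 0.1 of the genes named on the vertical axis (horizontal log axis) in each of the 3 WKY (blue) and 6 SHR (red) RVLM libraries at 24 wk, 1 point per library, with the group mean as a black bar. The strains lie apart for every gene drawn except Th, where WKY replicate 1 at 9.47 CPM and WKY replicate 2 at 77.7 CPM enclose all 6 SHRs.

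Genes with the largest falls in SHRs were of mixed function. Cfap206, a protein of motile cilia, was at 9.35, 13.7 and 9.69 CPM in WKY rats and no higher than 0.392 CPM in SHRs, with a median of 0.173 (log2 fold change -5.87, standard error 0.46, adjusted p = 9.82e-13). Grifin, a galectin-related protein, fell from 214, 126 and 127 CPM in WKY rats to a range of 2.43 to 9.6 CPM in SHRs (-4.81, standard error 0.38, adjusted p = 1.15e-12). Tmem106c was at 47.5, 53.4 and 50.9 CPM in WKY rats and at 5.88 to 8.93 CPM in SHRs (-2.87, standard error 0.16, adjusted p = 3.55e-17). The 3 genes were well separated between the strains. Fmo2, a flavin-containing monooxygenase, was at 4.99, 6.26 and 7.06 CPM in WKY rats and 0.404 to 1.42 CPM in SHRs (-2.88, standard error 0.38, adjusted p = 9.39e-07). The sulfurtransferase-like gene Tstd1 was at 27.8, 16.3 and 15.2 CPM in WKY rats and at most 1.39 CPM in SHRs. Exo1, an exonuclease of DNA repair, was at 3.12, 2.97 and 3.95 CPM in WKY rats and at most 0.52 CPM in SHRs. Ncaph, a condensin subunit, was at 3.86, 5.85 and 5.38 CPM against at most 1.23 CPM. Cela1, Ocm2, Lrsam1 and Serhl2 were also among the 12 largest falls, with log2 fold changes of -4.87, -4.08, -3.48 and -2.61.

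The most abundant of the lower transcripts were 2 genes of glia and a gene with a placeholder name. AABR07052523.1 was at 699, 643 and 649 CPM in WKY rats and at 9.65 to 20.2 CPM in SHRs. S100b, a calcium-binding protein of astrocytes and some oligodendrocytes, had 3006, 2844 and 2912 CPM in WKY rats and 1003 to 1454 CPM in SHRs, with a median of 1224 (log2 fold change -1.26, standard error 0.15, adjusted p = 3.65e-08). Mobp, a protein of compact myelin, had 532, 449 and 509 CPM in WKY rats and 192 to 313 CPM in SHRs, with a median of 244 (-1.0, standard error 0.15, adjusted p = 4.87e-06). No SHR reached the lowest WKY rat for either gene. Each was the sole member of its marker list to pass the test. Of 9 astrocyte markers 5 had positive and 4 negative log2 fold changes, with a median of 0.02, and of 10 oligodendrocyte markers 4 were positive, with a median of -0.01. The summed CPM of the astrocyte markers without S100b was 1519, 1825 and 1911 in WKY rats and 1450 to 1996 in SHRs, and the oligodendrocyte sum without Mobp also overlapped. Leaving out WKY replicate 1 moved Mobp to a log2 fold change of -0.98, just under the fold limit, as did 2 of the SHR libraries.

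Genes of insulin signalling were among the calls, and both were chosen for mention after their values had been seen. Insr, the insulin receptor, was at 12.6, 19.7 and 18.1 CPM in WKY rats and 4.26 to 7.44 CPM in SHRs (log2 fold change -1.40, standard error 0.21, adjusted p = 1.33e-05). Pik3r1, a regulatory subunit of phosphoinositide 3-kinase, was at 88.8, 96.1 and 111 CPM in WKY rats and 23.7 to 43.3 CPM in SHRs (-1.52, standard error 0.13, adjusted p = 1.04e-11). Both genes were called at all 5 ages.

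Gene groups were examined through 57 lists, which cover blood pressure control, neurotransmission, ion channels, immunity, ribosomes, respiration, matrix, other functions and cell type markers. Of 715 distinct members tested, 13 were higher and 10 lower at an adjusted p under 0.05, together 3.22%, beside 2.24% of all genes. A further list holds 79 genes that the study's paper names from these libraries, and is counted in the 57. Of these genes 2 were higher and 3 lower, so the share over all lists is not independent of these data. Without WKY replicate 1 the number of members that passed fell from 23 to 14. In 40 lists no member passed. Among those of blood pressure control and neurotransmission were catecholamine synthesis and C1 identity (10 tested), acetylcholine receptors (9), adrenergic receptors (6), the renin-angiotensin system (10), AMPA and kainate receptors (8), GABA-A receptors (13), voltage-gated sodium (11) and calcium (14) channels, neuropeptides (22) and the vesicle release machinery (22).

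Among glutamate receptors, 1 of 6 NMDA receptor subunits passed, where 2.24% of all genes did. Grin2a, a subunit that shapes the kinetics of the channel, was at 2.62, 2.46 and 3.35 CPM in WKY rats and at 4.41 to 8.11 CPM in SHRs, with a median of 6.76 and no overlap (log2 fold change 1.22, standard error 0.33, adjusted p = 0.0354). It lost the test when any 1 of the 3 WKY rats was left out, with an adjusted p of up to 0.186 in edgeR. The same happened without any 1 of SHR replicates 2, 3, 4 and 6. It was also lost with no filter on low counts and with the replicate block described under the dependence on processing. Grin2a passed in 7 of 16 alternatives, and over all of them the adjusted p ran from 0.0084 to 0.186. Grin1, the obligatory subunit, was at 55.8, 88.2 and 22.9 CPM in WKY rats and between 72.5 and 107 CPM in SHRs (0.75, standard error 0.30, adjusted p = 0.237). WKY replicate 3 had the lowest Grin1 level, and its summed CPM over the NMDA list was 36.7, beside 90.9 and 121 in the other WKY rats and 105 to 178 in SHRs. The same library was lowest for the perineuronal net list, at 214 beside 631 and 726, and for the immediate early genes, at 50.7 beside 120 and 141. Its part in the result for the list was not tested beyond leaving it out, which gave a median log2 fold change of 0.41, the lowest of the 9 libraries left out in turn, in place of 0.77.

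Potassium channel genes gave 2 falls and no rise among 43 tested, where 2.24% of all genes passed in either direction. Kcnip3, a calcium-binding partner of Kv4 channels and a transcriptional repressor, was at 44.5, 33.5 and 54.1 CPM in WKY rats and 13.3 to 20.6 CPM in SHRs (log2 fold change -1.28, standard error 0.18, adjusted p = 1.96e-06). Kcne2, a beta subunit of several potassium channels, was at 6.11, 4.0 and 4.67 CPM in WKY rats and 0.953 to 1.82 CPM in SHRs (-1.90, standard error 0.33, adjusted p = 0.00016). Neither overlapped between the strains. With the replicate block described under the dependence on processing, the adjusted p in edgeR was 0.0752 for Kcne2 and 0.0172 for Kcnip3. The list as a whole had 32 positive log2 fold changes of 43 and a median of 0.30, beside 0.05 over all genes.

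Of 27 neuropeptide receptor genes, 2 were higher and 1 lower, beside 2.24% of all genes in either direction. Tacr1, the substance P receptor, was at 2.49, 5.64 and 3.71 CPM in WKY rats and 6.66 to 11.4 CPM in SHRs (log2 fold change 1.2, standard error 0.31, adjusted p = 0.0224). Crhr1, a receptor of corticotropin-releasing hormone, was at 3.37, 3.59 and 2.51 CPM in WKY rats and 5.88 to 9.36 CPM in SHRs (1.24, standard error 0.30, adjusted p = 0.014). Ramp1, which makes the calcitonin receptor-like receptor respond to CGRP, was at 73.4, 62.7 and 42.8 CPM in WKY rats and 30.4 to 41.5 CPM in SHRs (-0.72, standard error 0.20, adjusted p = 0.0402). The strains did not overlap for any of them, and none held in all settings. Without WKY replicate 1 the adjusted p became 0.266 for Tacr1, 0.0703 for Crhr1 and 0.365 for Ramp1, and without WKY replicate 3 it became 0.151 for Tacr1 and 0.168 for Crhr1. Over all alternatives it ran from 0.005 to 0.266 for Tacr1, from 0.00312 to 0.168 for Crhr1 and from 0.0139 to 0.365 for Ramp1, and Ramp1 passed in 7 of 16. Abat, the enzyme that breaks down GABA, was at 120, 163 and 134 CPM in WKY rats and 80 to 111 CPM in SHRs (-0.63, standard error 0.14, adjusted p = 0.0034), and without WKY replicate 2 its adjusted p was 0.0755, in a range from 0.00075. Gucy1a1, a subunit of the nitric oxide receptor guanylate cyclase, was at 18.7, 21.6 and 26.4 CPM in WKY rats and 30.9 to 57.3 CPM in SHRs (0.85, standard error 0.22, adjusted p = 0.0237), and without WKY replicate 1 its adjusted p was 0.226, in a range from 0.00518. Tacr1, Ramp1, Abat, Grin2a and Kcnip3 are also named in the study's own account of these libraries, so their choice is not independent of them.

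The rat major histocompatibility complex, RT1, presents peptides to T cells, and its genes moved in both directions. Of 16 tested, 3 were higher and 1 lower, beside 2.24% of all genes in either direction. The list median was -0.15. RT1-A1, a class I gene, was at 29.4, 30.7 and 25.4 CPM in WKY rats and 126 to 164 CPM in SHRs (log2 fold change 2.39, standard error 0.14, adjusted p = 4.21e-17). RT1-A2, another class I gene, was at 6.61, 8.92 and 8.5 CPM in WKY rats and 2.78 to 5.07 CPM in SHRs (-0.94, standard error 0.21, adjusted p = 0.00509). The adjusted p of RT1-A2 in edgeR was 0.193 with the replicate block, described under the dependence on processing. With the 9 libraries of 24 wk alone it was 0.0518. RT1-Db1, a class II chain, was at 0.499, 0 and 0.359 CPM in WKY rats and 1.42 to 3.44 CPM in SHRs (3.23, standard error 0.67, adjusted p = 0.00199). Its adjusted p rose to 0.0386 without WKY replicate 2 and to 0.0169 without WKY replicate 3, in a range from 0.000197. RT1-CE4 was at 6.86, 7.59 and 6.22 CPM in WKY rats and 9.6 to 14 CPM in SHRs (0.79, standard error 0.20, adjusted p = 0.0152), and without WKY replicate 3 its adjusted p was 0.211, in a range from 0.0082. Members of this family are near-identical and differ between strains, and reads aligned to the genome of another strain can be assigned to the wrong member, so each value is uncertain. Psmb8, an immunoproteasome subunit, and Tapbp, which loads class I molecules, were higher by 1.09 (adjusted p = 0.000742) and 0.78 (adjusted p = 0.011) on the log2 scale in edgeR's test. Without WKY replicate 1 their adjusted p was 0.0616 and 0.123. Over all alternatives it ran from 5.81e-05 to 0.0701 for Psmb8 and from 7.86e-06 to 0.127 for Tapbp.

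The interferon list did not follow Ifit1, its only member to pass of 23. Its median log2 fold change was -0.29, and 10 members were positive. Complement genes had a median of -0.02 over 24 tested, with the doubtful Cfb copy as the only one to pass. Of 15 genes of cytokine and Toll-like receptor signalling 1 passed, Il33, an alarmin of glia, at 51.7, 45.8 and 49.2 CPM in WKY rats and 24.3 to 34.3 CPM in SHRs (-0.74, standard error 0.14, adjusted p = 0.000626). Chi3l1, a secreted protein of reactive astrocytes that was picked after its values were seen, went the other way, from 23.8, 27.2 and 27.8 CPM in WKY rats to 66.8 to 97.5 CPM in SHRs (1.70, standard error 0.14, adjusted p = 3.74e-12).

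Of 7 tested genes of hemoglobin and red cells 2 were lower, beside 1.15% of all genes, with a list median of -0.86. Hba-a1 was at 329, 304 and 384 CPM in WKY rats and 125 to 179 CPM in SHRs (log2 fold change -1.16, standard error 0.31, adjusted p = 0.0351), and without WKY replicate 3 its adjusted p was 0.197, in a range of 0.000358 to 0.333 over all alternatives, most of which it failed. Hba-a3 was at 2.88, 1.64 and 3.95 CPM in WKY rats and at 0 in 5 of 6 SHRs (adjusted p = 5.71e-08), which is 72 counts against 1. The alpha globin copies are alike, so reads may be divided among them. The summed CPM of the blood cell markers was 293 to 406 in SHRs, below all 3 WKY rats, which had a median of 672. This sum stayed apart without Hba-a1, with 308, 368 and 438 in WKY rats and 169 to 254 in SHRs. Among all genes tested singly, 9.25% did not overlap.

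Some lists lay to 1 side of 0 without any member passing. Of 83 cytosolic ribosomal protein genes 3 had positive log2 fold changes, with a median of -0.50, and of 77 nuclear genes of oxidative phosphorylation 2 were positive, with a median of -0.44. The summed CPM of the ribosomal list was 9999, 7190 and 7466 in WKY rats and 4005 to 7021 in SHRs, without overlap. The lowest value was in SHR replicate 6, the deepest library, and the highest in WKY replicate 1. The sum for oxidative phosphorylation overlapped, at 36686, 27759 and 29943 CPM in WKY rats and 19869 to 28446 CPM in SHRs. The direction was not held over age, with RVLM medians of -0.23, -0.10, 0.14 and -0.01 for the ribosomal list at the ages from 8 to 16 wk in turn and -0.34, -0.10, 0.16 and 8.5e-06 for oxidative phosphorylation. In the same rats at 24 wk the ribosomal median was -0.59 in the CVLM and -0.17 in the NTS, and that of oxidative phosphorylation -0.46 and -0.04. On the other side, 11 of 11 voltage-gated sodium channel genes were positive (median 0.33), as were 19 of 22 genes of vesicle release (median 0.32) and 7 of 7 markers of pericytes and smooth muscle (median 0.57). The summed CPM of the pericyte and smooth muscle markers was 83.2 to 97.3 in SHRs and at most 71.4 in WKY rats, while the sums of the sodium channel and vesicle release lists overlapped between the strains. Among all genes tested singly, 9.25% did not overlap. Sums of other lists also lay apart, such as the endothelin system, at 250 to 320 CPM in SHRs and 323 to 355 CPM in WKY rats, although 4 of its 6 members had positive log2 fold changes. Over all tested genes 7524 of 13411 were positive. At the ages from 8 to 16 wk in turn, RVLM medians were 0.56, 0.19, 0.049 and 0.063 for sodium channels. For vesicle release they were 0.28, 0.041, 0.041 and -0.0045, and for pericytes and smooth muscle 0.48, 0.17, 0.0037 and 0.18. At 24 wk the CVLM and NTS medians were 0.18 and 0.025 for sodium channels and 0.18 and 0.019 for vesicle release. For pericytes and smooth muscle they were 0.69 and 0.25. Of 22 collagen genes 1 passed, Col18a1 of basement membranes, at 2.37, 3.38 and 2.63 CPM in WKY rats and 3.94 to 8.4 CPM in SHRs (1.06, standard error 0.28, adjusted p = 0.0269), and without WKY replicate 1 its adjusted p was 0.22, in a range of 0.0137 to 0.341. The plot of gene lists sets RVLM list medians at 24 wk beside each other.

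**Figure D3:**
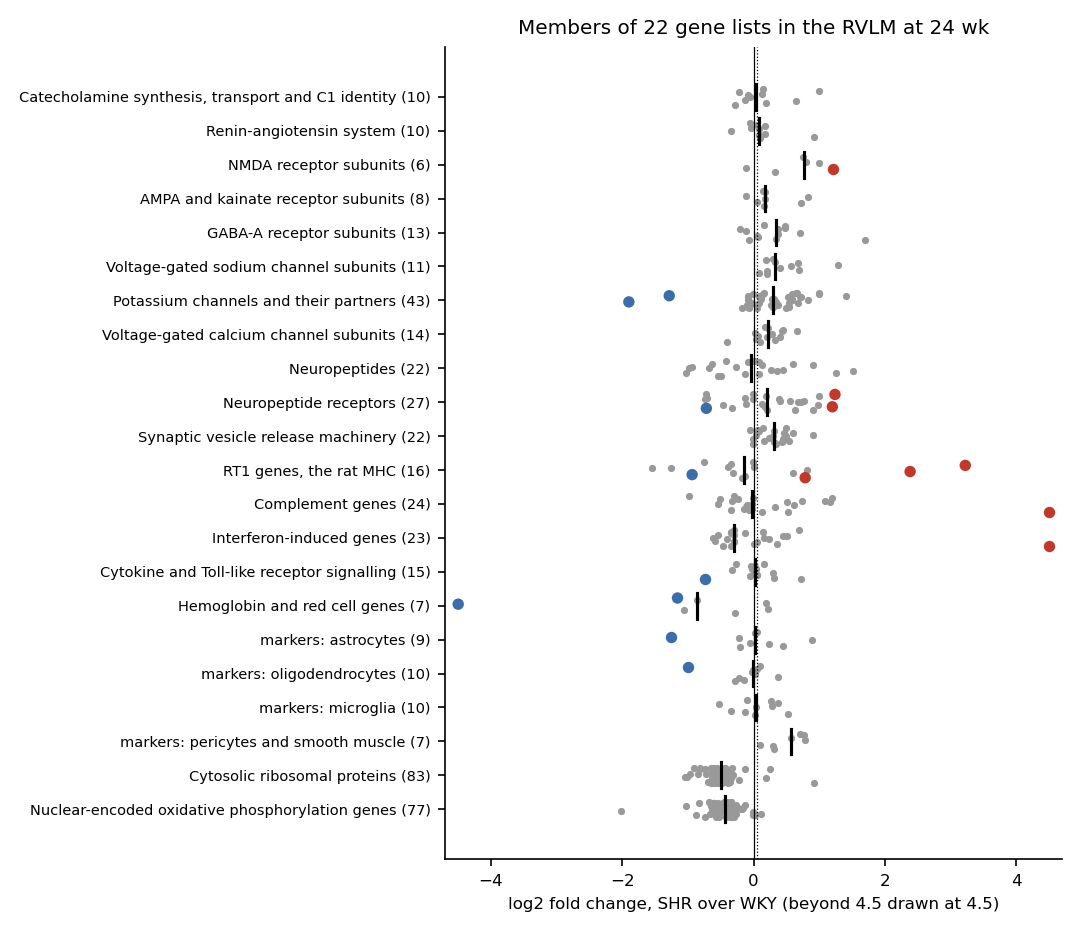
Log2 fold change of SHR over WKY in the RVLM at 24 wk (horizontal axis) for the tested members of 22 lists, 1 point per gene, with the list median as a black bar, the number tested in brackets and the median of all genes as a dotted line. Members with an adjusted p under 0.05 are large and coloured (red higher, blue lower), and values beyond the axis are drawn at its edge. The ribosomal and oxidative phosphorylation medians lie at -0.50 and -0.44 with no coloured point.

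To ask whether differences were particular to this stage, the strain effect at 24 wk was set against its mean over the younger ages, from other rats. Most calls were shared with the younger ages. Of the 130 genes 81 were called at all 5 ages, and 129 had the same sign of log2 fold change at all 5, with Csrnp2 as the exception, at -0.01 at 10 wk. At 24 wk alone 11 were called, and these are named here after their values were seen. Adpgk, an ADP-dependent glucokinase, was at 42.5, 71.2 and 10.8 CPM in WKY rats and 109 to 192 CPM in SHRs (log2 fold change 1.98, standard error 0.35, adjusted p = 0.000212). Csrnp2, a nuclear protein, was at 6.48, 10.2 and 2.99 CPM in WKY rats and 19.7 to 31.6 CPM in SHRs (1.93, standard error 0.33, adjusted p = 9.73e-05). WKY replicate 3 was the lowest of the 9 libraries for both, and without it their log2 fold changes were 1.5 and 1.56, and both were still called. With the 9 libraries of 24 wk fitted alone neither was, at adjusted p of 0.0901 for Adpgk and 0.0103 for Csrnp2. The others were Top3a, Uaca, Slc35f1, Arsb and Wdhd1, which were higher by 1.07 to 1.5, and Chchd5, Polr3k, Nat1 and Umodl1, which were lower with log2 fold changes of -1.01 to -1.81. Arsb, a lysosomal sulfatase, overlapped between the strains, and without WKY replicate 3 its adjusted p was 0.187. Several of these calls were not stable. Nat1 and Umodl1 were each called in 5 of 16 alternatives and Chchd5 in 6. Without WKY replicate 1 the adjusted p was 0.0765 for Nat1, 0.0987 for Chchd5, 0.088 for Uaca and 0.0397 for Top3a, and without WKY replicate 2 it was 0.0883 for Umodl1 and 0.0467 for Wdhd1. Without WKY replicate 3 it was 0.0343 for Slc35f1, and Polr3k fell just under the fold limit without WKY replicate 1. Over all alternatives the adjusted p reached 0.164 for Nat1, 0.189 for Umodl1, 0.145 for Chchd5 and 0.2 for Uaca. The test of the difference from the other ages was not passed by any of these 11, with adjusted p from 0.51 to 0.73 in edgeR.

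**Figure D4:**
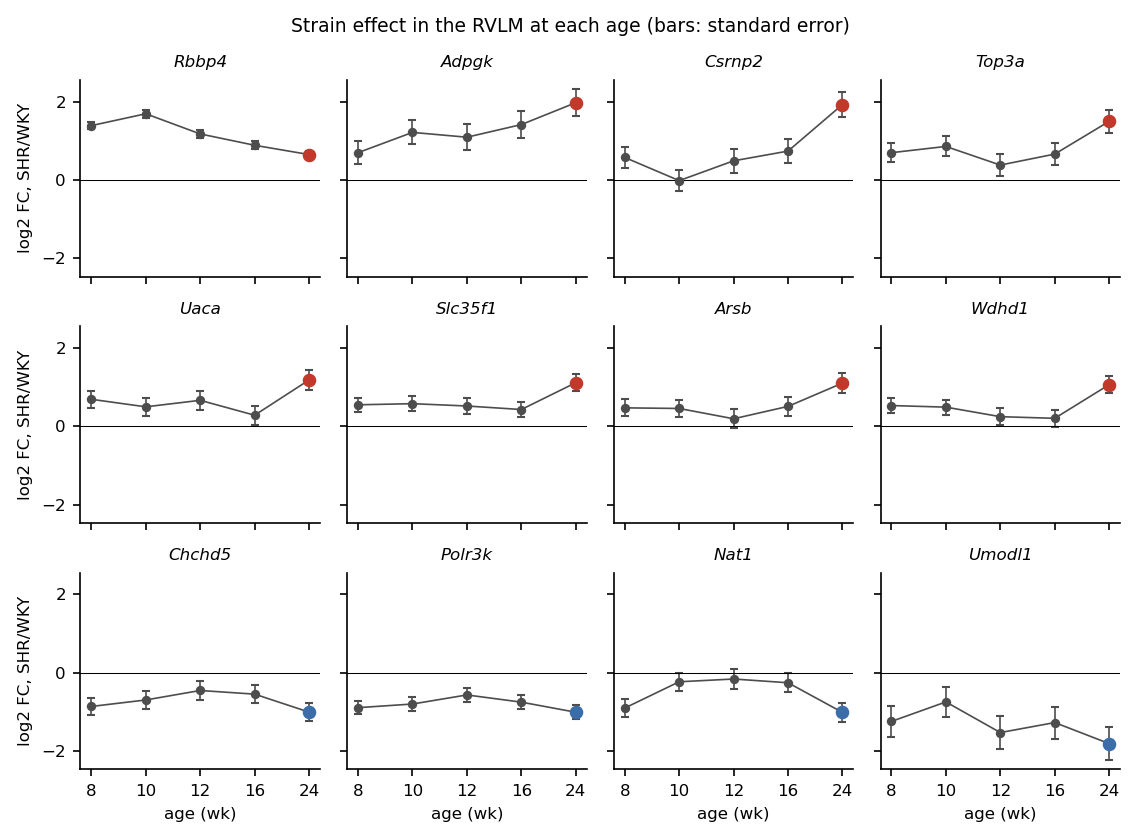
Log2 fold change of SHR over WKY in the RVLM (vertical axis) at each age in wk (horizontal axis) for Rbbp4 and the 11 genes called at 24 wk alone, with standard errors as bars and 24 wk coloured. Rbbp4 falls from 1.69 at 10 wk to 0.65 at 24 wk, and the others lie farthest from 0 at 24 wk.

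The strain effect at 24 wk differed from that at the other ages for 1 gene (0.00746%), with 972 at an unadjusted p under 0.05. This gene was Rbbp4, a histone-binding subunit of several chromatin complexes. At 24 wk it was at 76.2, 88.4 and 76.2 CPM in WKY rats and 113 to 146 CPM in SHRs, with a median of 124 (log2 fold change 0.65, standard error 0.10, adjusted p = 1.9e-05). The strains did not overlap at any age, but the WKY medians were 48.6, 39.4, 61.1, 73.9 and 76.2 CPM from the youngest to the oldest age while those of SHRs stayed between 124 and 136 CPM. The effect at 24 wk was lower than the mean of the other ages by -0.64 on the log2 scale (standard error 0.11, adjusted p = 0.00917). Without WKY replicate 2 the adjusted p of this difference was 0.126, and over all alternatives it ran from 1.24e-05 to 0.671. DESeq2 gave 7 genes in place of 1.

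In the same 9 rats, the strain effect in the RVLM was set against the one in the NTS and in the CVLM, with the rat as a block. Of the 130 genes 83 were also called with the same sign in both other regions and 25 in neither. Of the 25, Ocm2, Mocos, Il2rb and Exo1 were tested in neither other region and Cela1 was not tested in the NTS, so they could not be called there. The 25 cannot be read as particular to the RVLM, since 0 of 14043 genes (0%) differed from the CVLM in edgeR's test, with 332 at an unadjusted p under 0.05, and 4 (0.0285%) differed from the NTS, with 771 at an unadjusted p under 0.05. None of the 25 was among the 4. Without SHR replicate 6, 1 gene differed from the CVLM, and without any 1 of SHR replicates 2, 3 and 5 and WKY replicate 2 only 2 differed from the NTS. Kcne2, for example, had log2 fold changes of -1.90 in the RVLM, -0.87 in the NTS and -0.44 in the CVLM.

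Cfap206 was called in both the RVLM and the NTS and differed between them. On a common scale it fell in the NTS from 25, 40.1 and 41.6 CPM in WKY rats to 3.05 to 7.66 CPM in SHRs, and in the RVLM from 9.8, 14.6 and 10.4 CPM to at most 0.416 CPM. The difference between the 2 effects was -3.26 on the log2 scale (standard error 0.56, adjusted p = 0.00104). Aldh1a1, which makes retinoic acid and marks some catecholamine neurons, was at 315, 322 and 360 CPM in the RVLM of WKY rats and 240 to 340 CPM in that of SHRs, with overlap. In the NTS it was at 60.5, 32.2 and 45.2 CPM in WKY rats and 89.1 to 132 CPM in SHRs, without overlap, and the effects differed by -1.39 (standard error 0.19, adjusted p = 3.53e-06). Ifi44, an interferon-induced gene, was at 8.89, 7.62 and 8.09 CPM in the RVLM of WKY rats and 8.57 to 17.3 CPM in SHRs, while in the NTS SHRs lay below WKY rats at 6.5 to 8.5 CPM against 8.69, 10 and 16.4 CPM. The effects differed by 1.28 (standard error 0.26, adjusted p = 0.0286), and without WKY replicate 3 the adjusted p was 0.535, in a range from 0.00407. For Terf2ip, a telomere protein, the RVLM levels of the strains overlapped, the NTS levels of SHRs were lower, and the difference was 0.58 (standard error 0.12, adjusted p = 0.0346), which without WKY replicate 3 gave an adjusted p of 0.564, in a range from 0.013.

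**Figure D5:**
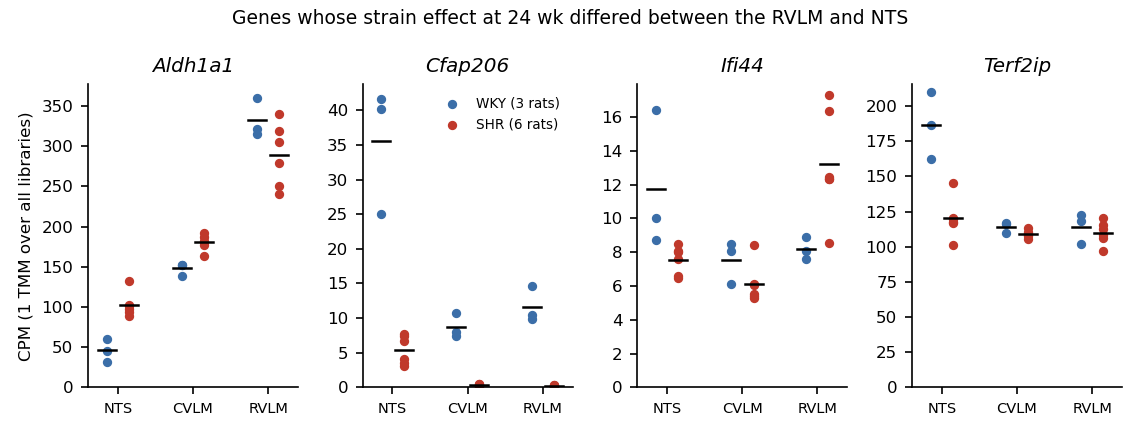
CPM at 24 wk (vertical axis, 1 scaling over the libraries of all 3 regions) in the NTS, CVLM and RVLM for the 4 genes whose strain effect differed between the RVLM and the NTS, 1 point per library, WKY in blue and SHR in red, with means as black bars. Cfap206 in SHRs is near 0 in the RVLM and CVLM but at 3.05 to 7.66 CPM in the NTS.

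The position of called genes relative to one another was examined. By symbol, 106 of the 130 could be placed in the RefSeq gene order of the assembly GRCr8, and 22 of these (20.8%) had another called gene within 5 places on either side among the tested genes so placed, beside 7.53% of the tested genes that were not called. Such pairs included RT1-Db1 with Psmb8, Larp6 with Uaca and Tomm40l with Nr1i3, which both rose within each pair, and Cela1 with Csrnp2, Exo1 with Pld5, Lilrb3a with Prpf31 and Chchd5 with Ckap2l. Of these, Exo1 and Pld5 both fell, and in Cela1 with Csrnp2, Lilrb3a with Prpf31 and Chchd5 with Ckap2l 1 gene rose and the other fell. Adjacent genes can share reads where they overlap, and whether they did was not tested.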

How the data were processed

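RNA-seq of RVLM punches from 9 rats at 24 wk was analysed, with 37 RVLM libraries of younger ages in the same fit. By the authors' account STAR inside RSEM placed the reads on rn6, and the deposited values are expected counts per gene, not normalized. The methods also name a batch adjustment with ComBat_seq. Whether it is in the tables is not stated, and 4.88% of the RVLM values are not whole. Counts were rounded. Genes with a largest rlog value of at least 3.5 were kept, as in the study, normalized with TMM and fitted in edgeR 4.0.16 (R 4.3.3) with 1 mean per strain and age over 46 libraries, and quasi-likelihood tests were adjusted by Benjamini and Hochberg. Each standard error is the absolute log2 fold change divided by the square root of the F statistic of its test. The study's model of age, strain and their interaction has an equivalent design, but was fitted with DESeq2 and q-values. Regions were compared in 1 fit of all libraries with the rat as a block.

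Genes named are the 12 highest and 12 lowest called at a mean of at least 1 CPM, the 3 highest and lowest placeholders, list members with an adjusted p under 0.05, genes the study's paper names (such as Grin1), genes that differed by age or region, and C1 markers. Others, among them the genes called at 24 wk alone, Chat and the neighbouring pairs, were chosen after their values were seen. Results for 2 genes that the rule names are not reported here. The lists and members were chosen with earlier results of these data known. Each library is 1 rat. No pair of libraries in a group was a repeat (lowest chi-square per gene 6.76). On simulated data for this comparison, with 13411 genes, 93% of genes changed by 1.5 on the log2 scale and 100% of those changed by 3 were called. The changed genes were drawn only from those above a limit on mean CPM, and no library was made to deviate. These rates therefore do not cover genes of low level or a deviating library. Alternatives were DESeq2 1.42.0, other scaling and filters, a replicate block, the library number as a term, the 24 wk libraries alone, and each rat left out. RNA-seq depth limits low genes, and counting error is only part of the spread shown.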

Additional observations from a re-analysis of the deposited data

Results flagged for a closer look

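In SHRs at 24 wk, 97 sets of 6 values were checked for a sample far from the others by Dixon's ratio, and 3 were marked, where chance marks about 1 in 20. In each it was SHR replicate 5 that was highest. It had 40.0 CPM of Ephx2, beside 28.8 to 30.8 CPM in the other SHRs, 5.58 CPM of Serhl2, beside 2.74 to 3.73 CPM, and 0.0979 CPM of Hba-a3, where the other 5 SHRs had 0. All 6 SHRs lay above the WKY rats for Ephx2 and below them for Serhl2 and Hba-a3. For Serhl2 and Hba-a3, SHR replicate 5 was thus the SHR nearest to the WKY rats.

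The strain effect of Rbbp4 at 24 wk differed from its mean at the other ages by -0.64 on the log2 scale. Between the RVLM and the NTS the strain effect at 24 wk differed by -1.39 for Aldh1a1, -3.26 for Cfap206, 1.28 for Ifi44 and 0.58 for Terf2ip. These differences were tested directly in edgeR, with adjusted p of 0.00917, 3.53e-06, 0.00104, 0.0286 and 0.0346 in that order.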

How the results depend on the processing

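The replicate block, in which rats of both strains with the same number share a term, gave 74 called genes in place of 130 (36 higher and 38 lower in SHRs), 70 higher and 68 lower in place of 147 and 154 at an adjusted p under 0.05, 12 in place of 23 list members, and 0 genes for 24 wk against the other ages. Same-numbered rats are different animals, and the sample labels do not name them as pairs, so the main fit did not pair them. Their deviations correlated at -0.0187, 0.206 and 0.484. SHR replicate 3 was the closest SHR to WKY replicate 3, and SHR replicate 4 the closest to WKY replicates 1 and 2. Whether rats of 1 number share a factor was not tested further. A fold limit above a log2 of 2 gave 62 called genes. With the 9 libraries of 24 wk alone 91 genes were called, 35 higher and 56 lower, with 86 higher at an adjusted p under 0.05. DESeq2 gave 7 genes for 24 wk against the other ages, and the 27 libraries of 24 wk alone gave 2 genes for RVLM against NTS. Leaving out 1 rat at a time gave 111 to 132 called genes (49 to 65 higher, 60 to 69 lower), 80 to 205 higher at an adjusted p under 0.05 with the lowest without WKY replicate 1, 14 to 23 list members, 0 to 1 for the other ages, 2 to 6 for the NTS and 0 to 1 for the CVLM. Of the 12 highest and 12 lowest genes, 23 of 24 kept their call under every library left out, with RT1-Db1 as the exception, and 21 under every alternative, with Cfb and Il2rb as the others. Signs turned for Th (0.24 with the block, 0.06, 0.04, 0.51 and 0.02 without SHR replicates 2 and 5 and WKY replicates 2 and 3), Pnmt (0.033 with the block, 0.11 without WKY replicate 2) and Dbh (-0.03 and -0.36 without SHR replicate 1 and WKY replicate 1, beside 0.48 without WKY replicate 2). Without WKY replicate 1, the lowest in all 3 genes, the values were -0.57 for Th and -0.70 for Pnmt. The cause was not tested. The median standard error at 24 wk was 0.24 on the log2 scale, and changes several times that size could miss the test, as Grin1 did at 0.75.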
